A study of Mus musculus with 6 samples.

Results

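Myosin heavy chains are the motor subunits of conventional myosin, and 10 of their genes were followed here in whole mouse skin: the slow chain Myh7, the fast chains Myh1, Myh2 and Myh4, the developmental chains Myh3 and Myh8, the cardiac chain Myh6, the smooth muscle chain Myh11 and the non-muscle chains Myh9 and Myh10. The genes were taken by symbol from a table of 23951 genes, and all 10 were found in it. The table gives FPKM, fragments per kilobase of transcript, scaled to the mapped fragments of the library, for 6 C57Bl/6 mice aged 6 to 7 months. There were 3 mice labelled JunB +/+, called controls here, and 3 labelled JunB dep, a genotype designed to delete Junb in cells that express keratin 5. JunB is a subunit of the AP-1 transcription factor. The deletion was made by crossing a floxed Junb allele to K5-Cre, a recombinase driven by the keratin 5 promoter that targets basal keratinocytes and is not a muscle promoter. The mice were littermates, and the JunB dep skin was lesional. Neither the body site of the skin nor the Cre status of the controls is stated in the labels or methods used here.

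Each myosin of this class is a pair of heavy chains with light chains bound to its necks, and the heavy chain hydrolyses ATP and pulls on actin. In adult skeletal muscle the heavy chain sets the speed of a fibre: Myh7 marks slow fibres (type I), Myh2 the fast oxidative type IIa, Myh1 the intermediate type IIx and Myh4 the fastest, glycolytic type IIb. Myh3 (embryonic) and Myh8 (perinatal) are used in developing and regenerating fibres, and Myh6 is the alpha chain of the heart. Myh11 is the chain of smooth muscle, as in vessel walls and the arrector muscles of hair follicles. Myh9 and Myh10 are the non-muscle chains IIA and IIB, which drive cell shape, adhesion and division in most cells, keratinocytes included. Mouse skin carries a sheet of skeletal muscle, the panniculus carnosus, beneath its fat layer.

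Between 18418 and 18873 genes were above 0 FPKM in a mouse, and the number of reads behind the values is unknown. Where 3 values are given for a group, they are those of replicates 0, 1 and 2. Keratinocyte markers were abundant in all 6 libraries, with Krt5 at 1588 to 3725 FPKM and Krt10 at 1968 to 3872 FPKM, but 4 of the 7 listed stood apart in JunB dep replicate 0. There Krt14 is listed at 0, Krt15 was at 80.7 FPKM against 947 to 2388 FPKM in the other 5 libraries, Krt1 at 4466 against 446 to 958 FPKM, and Dsg3 at 76.3 against 2.90 to 6.34 FPKM. Junb itself had control values of 59.3, 72.4 and 56.9 FPKM. The library labelled JunB dep replicate 0 had 129.6 FPKM, more than any control, while replicates 1 and 2 had 42.8 and 28.0 FPKM. The deletion was aimed at keratin 5 cells and the values are of whole skin, so they do not settle whether the label is right. The library labelled JunB dep replicate 0 also stood apart in adipocyte genes, with Adipoq at 1.61 FPKM against 174.5 to 936 FPKM in the other 5 libraries, so results are also given without it. Values were compared as log2(FPKM + 0.5) with limma for those 17021 genes whose mean reached 0.1 FPKM, and a gene is called when its Benjamini-Hochberg adjusted p was below 0.05. Of these genes 235 were called lower in JunB dep skin (1.38% of those tested) and 0 higher (0%), while 1044 lower and 243 higher genes had an unadjusted p below 0.05. There were 120 lower and 11 higher without JunB dep replicate 0, and 0 lower without any 1 of the 3 controls or without JunB dep replicate 1. Of the 10 chains, 8 passed the filter, and 2 of the 8, Myh1 and Myh2, were called lower and 0 higher. In 5 of the 8 the values were lower in JunB dep skin without overlap between the groups, as in 9.16% of all tested genes, and in 1 they were higher without overlap, as in 5.62%. Myh7, one of the 5, was among the 8 only through its control values, and Myh3 and Myh6 did not pass. With 3 mice against 3, an exact permutation test cannot give a p below 0.1.

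In control skin the chains ran over several orders of magnitude, with the fast skeletal chains on top. The fast glycolytic chain Myh4 was at 746 ± 72.0 FPKM (SD, n = 3 mice here and below), above Myh1 at 297 ± 60.1 FPKM and Myh2 at 55.3 ± 19.6 FPKM. The non-muscle chain Myh9 followed at 41.0 ± 8.31 FPKM, and its range of 31.4 to 46.1 FPKM overlapped that of Myh2. Below these came Myh11 at 8.56 ± 0.968 FPKM and Myh10 at 3.14 ± 0.610 FPKM. Myh7 was at 0.809 ± 1.13 FPKM and Myh8 at 0.541 ± 0.0581 FPKM, and these neighbours overlapped. Myh3 was at 0.106 ± 0.0897 FPKM and also overlapped with Myh7, and Myh6 was lowest at 0.0102 ± 0.00273 FPKM. FPKM is per length, so these levels can be set side by side.

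In JunB dep skin the order was less clear. Myh4 at 93.2 ± 75.1 FPKM, Myh9 at 56.6 ± 12.0 FPKM and Myh1 at 44.4 ± 19.5 FPKM overlapped, and so did Myh11 at 5.73 ± 5.99 FPKM, Myh2 at 3.90 ± 2.38 FPKM and Myh10 at 2.47 ± 1.51 FPKM. Myh8 at 0.140 ± 0.0504 FPKM overlapped with Myh3 at 0.0798 ± 0.115 FPKM. Myh6 was at 0.00752 ± 0.00796 FPKM, and Myh7 was lowest at 0.00263 ± 0.00455 FPKM, with Myh3, Myh6 and Myh7 overlapping. The non-muscle Myh9 exceeded Myh1 in 3 of 3 JunB dep mice and in none of the 3 controls, with ratios of 1.09 to 1.93 against 0.0857 to 0.178 (two-sided exact permutation test on the log2 ratios, p = 0.1, the smallest possible).

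**Figure D1:**
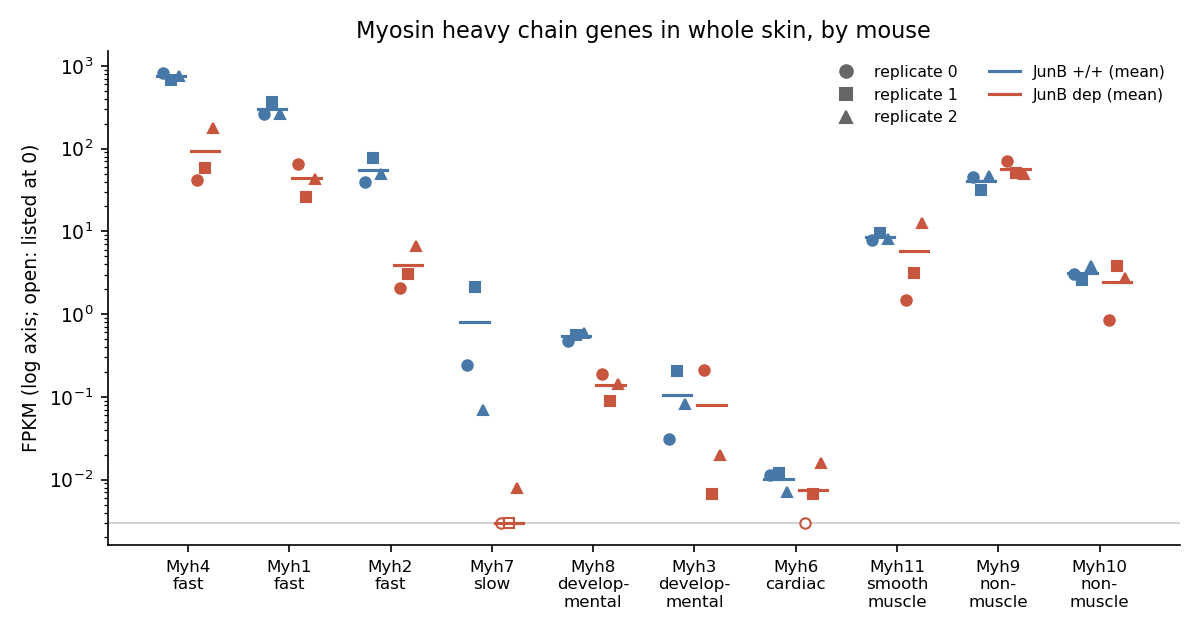
FPKM of the 10 myosin heavy chain genes in each mouse on a log axis, with a bar at each group's mean; open points on the grey line are listed at 0, and the Myh7 mean of JunB dep skin, 0.00263 FPKM, is drawn at that line. The points of Myh4, Myh1, Myh2, Myh7 and Myh8 lie lower in JunB dep than in control skin without overlap (9.16% of all tested genes did), those of Myh9 lie higher (5.62% did), and those of Myh3, Myh6, Myh11 and Myh10 overlap.

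The 3 fast chains were lower in every JunB dep mouse than in every control, as were 9.16% of all tested genes. Myh4, the chain of type IIb fibres, had control values of 815, 672 and 751 FPKM and JunB dep values of 41.4, 58.9 and 179 FPKM. The groups did not overlap, and JunB dep replicate 2 was the highest of its group. Its log2 fold change was -3.28 (SE 0.54), and the adjusted p of 0.0561 from limma was above the threshold, so Myh4 was not called. Without JunB dep replicate 2 its log2 fold change was -3.90 and its adjusted p was 0.00950 from limma. Myh1, the chain of type IIx fibres, had control values of 266, 367 and 259 FPKM and JunB dep values of 64.9, 26.0 and 42.5 FPKM. Here JunB dep replicate 0 was the highest of its group, and still lay far below the lowest control. Myh1 fell by 2.81 on the log2 scale (SE 0.36, adjusted p = 0.0268 from limma). Myh2, the chain of type IIa fibres, had control values of 39.3, 77.2 and 49.5 FPKM and JunB dep values of 2.07, 3.04 and 6.60 FPKM. The lowest control was 5.96 times the highest JunB dep mouse. Myh2 fell by 3.74 on the log2 scale (SE 0.44, adjusted p = 0.0216 from limma), and the ratio of its group means was 14.2. In RNA of whole skin, fewer muscle fibres in the sample and less transcript per fibre cannot be told apart.

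The calls rested on few mice, while the direction did not depend on 1 of them. Without JunB dep replicate 0 the log2 fold changes were -2.85 for Myh4, -3.12 for Myh1 and -3.42 for Myh2, with adjusted p-values of 0.120, 0.0459 and 0.0578 from limma. Leaving out control replicate 0, control replicate 1, control replicate 2 or JunB dep replicate 1 ended both calls, with adjusted p-values of 0.0844 to 0.163 for Myh1 and 0.106 to 0.147 for Myh2 from limma. Leaving out JunB dep replicate 2 ended the call of Myh1 (adjusted p = 0.0666 from limma) and kept that of Myh2 (adjusted p = 0.0129 from limma). The numbers in the sample titles fall into 2 series, whose meaning the labels do not give. In the series that holds JunB dep replicate 0, JunB dep replicate 0 minus the mean of control replicates 0 and 1 was -4.14 for Myh4, -2.26 for Myh1 and -4.43 for Myh2 on the log2 scale. In the other series, the mean of JunB dep replicates 1 and 2 minus control replicate 2 was -2.86, -2.94 and -3.32. With the series as a term in the fit, the adjusted p was 0.0661 for both Myh1 and Myh2 from limma.

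The fast chains are neighbours in the genome. On mm9, with GENCODE annotation of that build, chromosome 11 carries Myh3 (66891802 to 66915793), Myh2 (66984529 to 67011019), Myh1 (67013554 to 67038078), Myh4 (67051314 to 67073948) and Myh8 (67090626 to 67122136) in this order on the plus strand, 230.3 kb in all. Only 2534 bases separate Myh2 from Myh1, 13235 bases Myh1 from Myh4 and 16677 bases Myh4 from Myh8, whereas Myh3 lies 68735 bases before Myh2. Their longest coding transcripts have 39 to 41 exons and are much alike. Of all 50-base windows of the Myh1 transcript, 26.7% occur unchanged in the transcript of another of the 13 other chains of the class, most of them in Myh2 (19.7%), and the shares are 26.9% for Myh2, 18.9% for Myh4, 21.4% for Myh8 and 4.81% for Myh3. The alignment allowed up to 20 positions per read, so part of the value of a low chain beside an abundant one is uncertain. Antisense genes also overlap Myh1, Myh2 and Myh7, and it is not stated whether strand was used in the counting, so reads of the pairs could be mixed.

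The promoters of the 4 neighbours Myh2, Myh1, Myh4 and Myh8 are shown because all 4 transcripts were lower in JunB dep skin without overlap between the groups, as 9.16% of all tested genes were. They are RefSeq sequences on GRCm38.p6, a later build than that of the expression values, and run from 250 bases before to 50 bases after each annotated start. Capitals mark matches on either strand to 5 motifs: the MEF2 and CArG boxes bound by the factors MEF2 and SRF, the E-box CAGCTG bound by MyoD, the AP-1 site TGANTCA, the kind that JunB binds as part of AP-1, and the TATA box TATAAA.
Myh2 (chr11:67170777-67171076, plus strand): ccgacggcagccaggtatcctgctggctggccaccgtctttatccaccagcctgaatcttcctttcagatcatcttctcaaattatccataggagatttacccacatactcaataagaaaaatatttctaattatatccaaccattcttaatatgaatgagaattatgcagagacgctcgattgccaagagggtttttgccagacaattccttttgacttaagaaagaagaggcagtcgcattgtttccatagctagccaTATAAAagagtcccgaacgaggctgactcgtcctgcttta
Myh1 (chr11:67199852-67200151, plus strand): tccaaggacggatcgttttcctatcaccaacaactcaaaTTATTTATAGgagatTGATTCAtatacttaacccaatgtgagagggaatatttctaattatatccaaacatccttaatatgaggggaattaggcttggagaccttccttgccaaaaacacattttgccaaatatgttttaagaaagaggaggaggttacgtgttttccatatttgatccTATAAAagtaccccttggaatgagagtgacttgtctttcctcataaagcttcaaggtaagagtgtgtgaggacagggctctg
Myh4 (chr11:67237562-67237861, plus strand): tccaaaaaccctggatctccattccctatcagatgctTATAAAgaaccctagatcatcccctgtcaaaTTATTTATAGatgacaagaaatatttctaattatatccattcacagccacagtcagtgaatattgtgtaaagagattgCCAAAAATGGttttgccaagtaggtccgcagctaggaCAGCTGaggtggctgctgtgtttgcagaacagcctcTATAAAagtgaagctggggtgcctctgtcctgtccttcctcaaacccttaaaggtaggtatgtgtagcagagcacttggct
Myh8 (chr11:67276874-67277173, plus strand): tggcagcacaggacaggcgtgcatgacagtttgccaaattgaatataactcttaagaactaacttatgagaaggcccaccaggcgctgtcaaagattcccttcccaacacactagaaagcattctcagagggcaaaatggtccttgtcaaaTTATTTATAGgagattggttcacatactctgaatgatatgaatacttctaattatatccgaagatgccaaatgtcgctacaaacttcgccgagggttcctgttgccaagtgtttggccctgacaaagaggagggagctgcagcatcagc

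The same MEF2 match, TTATTTATAG, stands in Myh1 (base -211 to -202 from the start), Myh4 (-182 to -173) and Myh8 (-99 to -90) and not in the Myh2 window. It overlaps a TATA match on the opposite strand in each of the 3. A MEF2 match occurs in 3.19% of the 32851 RefSeq promoters of this length. Myh4 also has a CArG match (bases -104 to -95, found in 1.63% of promoters) and an E-box (-67 to -62, 16.3%), and Myh1 has an AP-1 match (-196 to -190, 7.81%). TATA matches, found in 13.6% of promoters, lie at -32 to -27 in Myh1, at -213 to -208 and -31 to -26 in Myh4 and at 11 to 16 in Myh2. The sequences also share a run of 14 bases, ttctaattatatcc, which begins at -125 in Myh2, -160 in Myh1, -158 in Myh4 and -54 in Myh8. It was looked for after the letters were seen, and occurs in these 4 of all 32851 promoters (0.0122%). The TATA match nearest the start lies after it in Myh2 and before it in Myh1 and Myh4. Myh8 has only the TATA match that overlaps its MEF2 match. The annotated starts may thus not be equivalent, and distances from them cannot be compared between genes. RefSeq promoters were matched for 9 of the 10 chains. The Myh3 window holds 1 TATA match and none of the other motifs, and the windows of both annotated Myh7 starts hold no match. A match describes the letters and not binding.

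The make-up of the sarcomeric myosin was compared as each chain's share of the summed FPKM of Myh1, Myh2, Myh3, Myh4, Myh6, Myh7 and Myh8, which no scaling of the libraries can change. The sum was 1121, 1118 and 1060 FPKM in the control mice, against 109, 88.0 and 229 FPKM in JunB dep skin, a ratio of means of 7.76. Myh4 took 72.7%, 60.1% and 70.8% of it in controls and 38.1%, 66.9% and 78.5% in JunB dep replicates 0, 1 and 2. JunB dep replicate 1 lay within the control range, replicate 2 above it and replicate 0 far below it. Myh1 took 23.7%, 32.8% and 24.5% in control mice and 59.6%, 29.5% and 18.6% in JunB dep skin. Without JunB dep replicate 0 both differences turned, from -6.71 to 4.82 percentage points for Myh4 and from 8.93 to -2.93 for Myh1. Neither share differed beyond the spread between mice (two-sided exact permutation test, p = 0.8 for each). Replicate 0 was the one mouse of the 6 with more Myh1 than Myh4, at a Myh4 to Myh1 ratio of 0.639 against 1.83 to 4.22 in the other 5.

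Myh2 held a smaller share in JunB dep skin. It took 3.51%, 6.91% and 4.67% in controls and 1.91%, 3.45% and 2.89% in JunB dep skin, a difference of -2.28 percentage points, or -1.34 without control replicate 1. The groups did not overlap, although the highest JunB dep share and the lowest control share were close (two-sided exact permutation test, p = 0.1, the smallest possible). Against each other fast chain alone the groups did overlap. Myh1 over Myh2 was 4.75 to 6.76 in controls and 6.43 to 31.3 in JunB dep skin (exact permutation test, p = 0.2). Myh4 over Myh2 was 8.70 to 20.7 in controls and 19.4 to 27.2 in JunB dep skin (exact permutation test, p = 0.3). The share of Myh7 was at most 0.189% and that of Myh8 at most 0.174% in the 6 mice. Myh8 took 0.0424% to 0.0551% in controls and 0.0629% to 0.174% in JunB dep skin, so its share was higher while its FPKM was lower (exact permutation test of the share, p = 0.1). At these levels reads of shared stretches could weigh on the values, and their part was not tested.

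**Figure D2:**
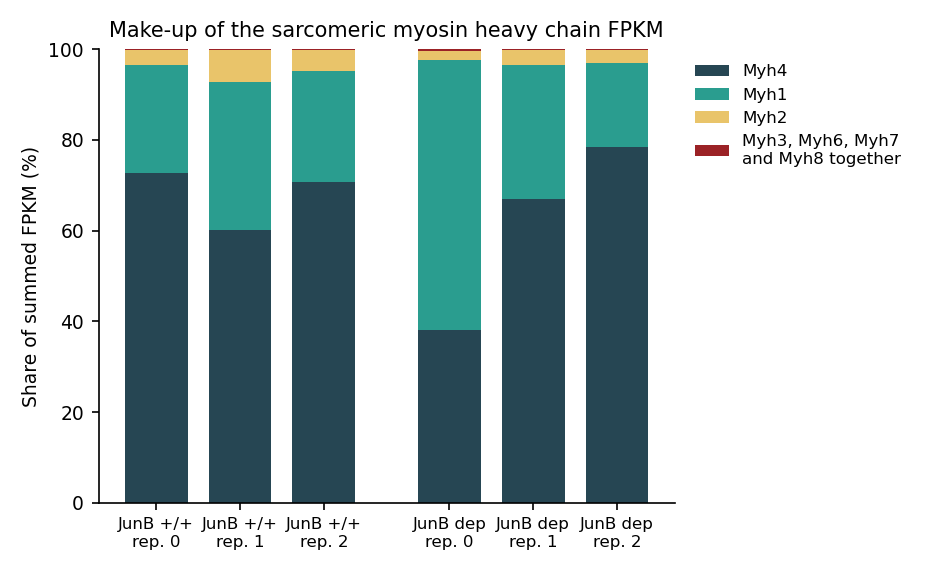
Bars give the share of each chain in the summed FPKM of the 7 sarcomeric myosin heavy chains, from 0 to 100%, in each mouse. Myh4 is the largest part in 5 of 6 mice, Myh1 is the largest in JunB dep replicate 0 at 59.6%, and Myh2 is 3.51% to 6.91% in controls and 1.91% to 3.45% in JunB dep skin.

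Transcripts of the proteins that work with the chains in the fibre were lower as well. The lists were chosen with earlier results of these data known, so their counts are a description and no independent test. Over all tested genes 1.38% were called lower. All 5 genes on the list shared by fibre types fell and were called: Acta1 (skeletal actin), Ckm (muscle creatine kinase), Ttn (titin), Neb (nebulin) and Tcap (a titin cap of the Z-disc). Their log2 fold changes ran from -3.17 to -2.39, with a median of -2.96 where the median of all genes tested was 0.03. Of the 11 fast-fibre partners 8 were called, all lower, and the groups did not overlap in 11 of 11, where 9.16% of all tested genes were lower without overlap. The median of the list was -3.07, and without JunB dep replicate 0 the medians were -2.82 for the fast partners and -2.81 for the shared genes. The fast troponins fell alike, with Tnnt3 at -3.28, Tnnc2 at -3.33 and Tnni2 at -3.27, and so did the fast myosin light chains Mylpf at -2.87 and Myl1 at -2.85. Atp2a1, the fast calcium pump, fell by 3.07. Pvalb, Actn3 and Mybpc2 were lower in every JunB dep mouse and not called (adjusted p = 0.306, 0.370 and 0.0793 from limma). Without JunB dep replicate 0, 1 gene of the shared list and 0 of the fast partners were called by limma. Leaving out any control or JunB dep replicate 1 left 0 of either list, and 0 were called with the title series as a term.

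The lists fell unevenly by mouse. The median of the fast partners against the control mean was -3.80, -3.43 and -2.24 on the log2 scale in JunB dep replicates 0, 1 and 2, and that of the shared genes was -3.25, -3.40 and -2.23. JunB dep replicate 2, the highest of its group for Myh4 and Myh2, was also the highest by these medians. The adipocyte markers moved otherwise: their summed FPKM was 1210 to 3839 in controls and 59.0, 2089 and 8949 in JunB dep replicates 0, 1 and 2, so that replicate 2 was above and replicate 0 below every control. None of the adipocyte markers was at 0, and their part in the result was not tested.

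**Figure D3:**
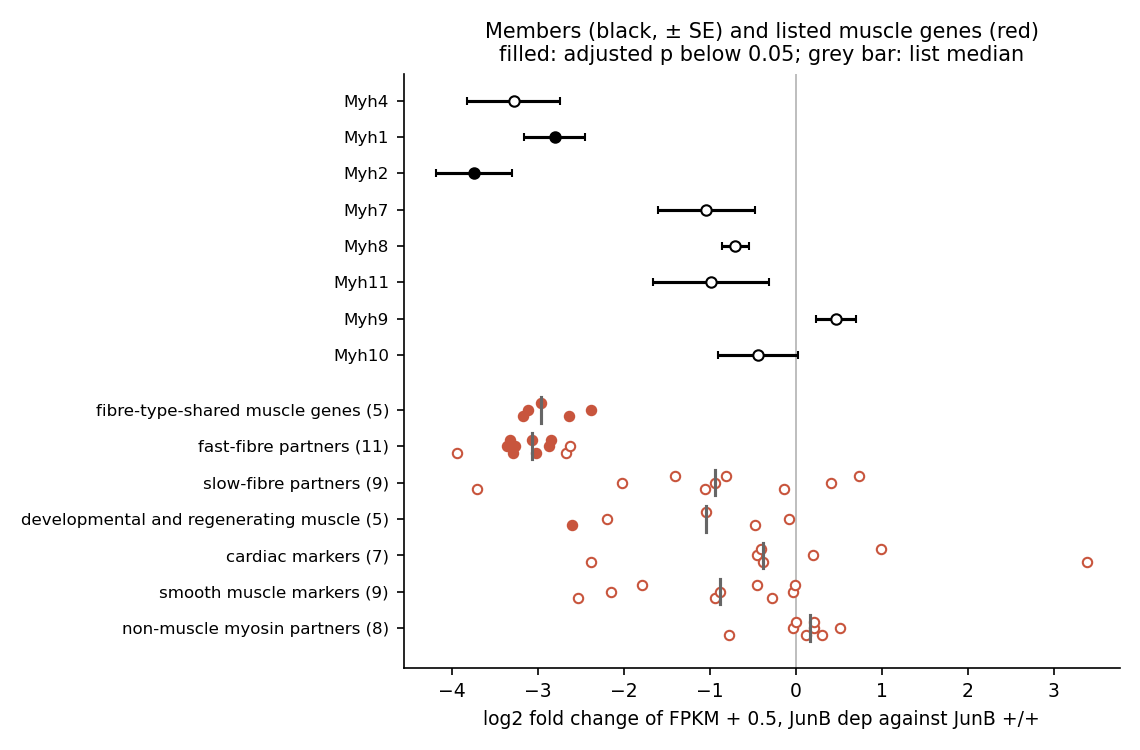
Log2 fold changes on the FPKM + 0.5 scale, JunB dep against JunB +/+, for the 8 chains that passed the filter (black, with SE) and for the tested genes of 7 lists (red, with the number of genes in brackets and a grey bar at the median). Filled points had an adjusted p below 0.05 from limma; Myh1, Myh2, 5 of 5 shared muscle genes, 8 of 11 fast-fibre partners and Myod1 are filled, and no slow-fibre, cardiac, smooth muscle or non-muscle gene is.

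Each fast chain was then set against the muscle transcript in the same mouse, as log2(FPKM + 0.5) minus the mean of Acta1, Ckm, Ttn, Neb and Tcap. That reference was 8.38 to 8.42 in controls and 5.31, 5.15 and 6.17 in JunB dep skin, a difference of -2.85. Myh1 relative to it was -0.34, 0.10 and -0.36 in controls and 0.72, -0.42 and -0.75 in JunB dep skin, a difference of 0.05 (two-sided exact permutation test, p = 1). Myh4 was at 1.28, 0.97 and 1.18 against 0.08, 0.74 and 1.32, a difference of -0.43 (p = 0.4, exact permutation test). Myh2 was at -3.08, -2.14 and -2.73 in controls and at -3.94, -3.33 and -3.35 in JunB dep skin. Its groups did not overlap, with a difference of -0.89 (p = 0.1, exact permutation test, the smallest possible). With the fast and slow partner lists as the reference the differences were -0.65, -1.12 and -1.58 for Myh1, Myh4 and Myh2. So the size depends on the reference, and the sign of Myh1 does too. That second reference differed by -2.16 between the groups, against -2.85 for the shared genes. It includes Tpm3 and Atp2a2, which are also expressed outside slow muscle and had higher means in JunB dep skin. Its other genes had negative fold changes. The sign change of Myh1 is therefore not a result per muscle transcript alone. Single mice moved the values against the shared genes as well. Without JunB dep replicate 0 the differences were -0.39 for Myh1, -0.11 for Myh4 and -0.68 for Myh2, without JunB dep replicate 2 that of Myh4 was -0.73, and that of Myh1 was also below 0 without control replicate 0 or control replicate 2.

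**Figure D4:**
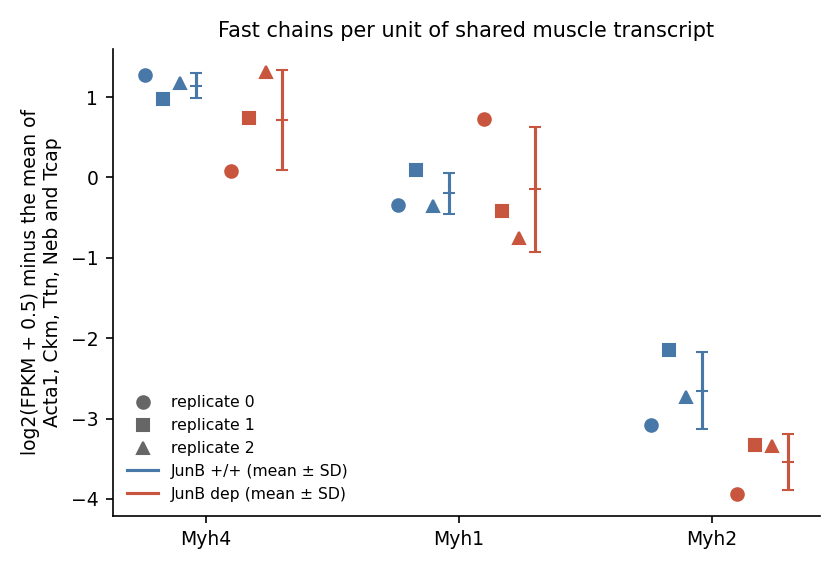
Log2(FPKM + 0.5) of Myh4, Myh1 and Myh2 minus the mean of 5 muscle genes shared by fibre types, in each mouse, with the mean and SD of each group. Only the points of Myh2 do not overlap between the groups.

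The slow chain Myh7 was scarce in all skin. It lies on chromosome 14 (55589525 to 55613471, minus strand, mm9), next to Myh6 (55560758 to 55585764), and its control values were 0.243, 2.11 and 0.0699 FPKM. In JunB dep skin it is listed at 0 in replicates 0 and 1 and was at 0.00789 FPKM in replicate 2. The groups did not overlap, but control replicate 1 carried most of the signal, and the log2 fold change of -1.04 (SE 0.57) was not called (adjusted p = 0.722 from limma). It was -0.37 without control replicate 1 and -2.30 with a pseudocount of 0.1. Control replicate 1 was the highest of the controls for 8 of the 9 slow partners as well, Atp2a2 being the exception. Tnnc1, the slow and cardiac troponin C, was at 9.66 FPKM there against 0.211 to 1.40 FPKM in the other 5 libraries, and Myl2, the slow and cardiac regulatory light chain, was at 28.8 FPKM.

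Of the 9 slow-fibre partners 0 were called by limma and 2 had an unadjusted p below 0.05, Myl2 and Myoz2, both lower. Their median log2 fold change was -0.94. When JunB dep replicate 0 was left out, the median was -1.34 and Myoz2, which sits at the Z-disc, was called (log2 fold change -2.65, adjusted p = 0.0487 from limma). Myl2 had control values of 2.65, 28.8 and 5.61 FPKM and JunB dep values of 0.282, 0.0318 and 0.113 FPKM, and the groups did not overlap (log2 fold change -3.70, SE 0.80, adjusted p = 0.146 from limma). The slow partners Myl3, Tnnc1 and Casq2 had log2 fold changes of -1.40, -1.05 and -0.94, with overlap between the groups. Tnnt1, the slow troponin T, had control values of 4.65, 17.7 and 3.52 FPKM and JunB dep values of 10.1, 2.77 and 1.54 FPKM. Its groups overlapped, and its log2 fold change was -0.81, or -1.49 without JunB dep replicate 0. That of Tnni1 was -0.14, or -0.53 without JunB dep replicate 0. Tnni1, the slow troponin I, had 0.687, 7.57 and 1.79 FPKM in the controls and 3.90, 4.73 and 0.220 FPKM in the JunB dep mice. Tpm3 and Atp2a2, which are also expressed outside slow muscle, had log2 fold changes of 0.41 and 0.73, and of 0.15 and 0.20 without JunB dep replicate 0. Whether the slow genes changed less than the fast ones was not tested.

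The developmental chains stayed near the floor of the table. Myh8, the perinatal chain, had control values of 0.475, 0.564 and 0.585 FPKM and JunB dep values of 0.189, 0.0885 and 0.144 FPKM, lower in 3 of 3 mice. Its log2 fold change was -0.70 (SE 0.16, adjusted p = 0.161 from limma, unadjusted p = 0.00410), a scale on which the added 0.5 holds down the change of so low a gene. With a pseudocount of 0.1 it was -1.43. In every mouse Myh8 stood at under 0.5% of the FPKM of its neighbour Myh4, from 0.0583% in control replicate 0 to 0.456% in JunB dep replicate 0. Myh3, the embryonic chain, had control values of 0.0307, 0.205 and 0.0812 FPKM and JunB dep values of 0.213, 0.00673 and 0.0199 FPKM. The groups overlapped, JunB dep replicate 0 was highest, and the gene was below the filter, so it was not tested.

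Genes of muscle precursors and regeneration were looked at beside these chains. Of 8 listed genes 5 passed the filter and 1 was called. This was Myod1, a myogenic transcription factor, with control values of 5.44, 6.68 and 3.63 FPKM and JunB dep values of 0.434, 0.283 and 0.580 FPKM, a fall of 2.60 on the log2 scale (SE 0.29, adjusted p = 0.0204 from limma). Its log2 fold change was -2.61 without JunB dep replicate 0, and the call was lost (adjusted p = 0.0578 from limma). Myf6, which adult fibres keep, ranged over 14.8 to 17.2 FPKM in control mice and over 1.31 to 6.43 FPKM in JunB dep mice (adjusted p = 0.155 from limma). Myog, active in differentiating myoblasts, had control values of 1.90, 2.85 and 1.61 FPKM and JunB dep values of 1.75, 0.259 and 0.629 FPKM. Chrng, the fetal acetylcholine receptor subunit, was at most 0.0359 FPKM in the other 5 libraries and at 0.221 FPKM in JunB dep replicate 0, the library that was also highest, by little, for Myh3.

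The cardiac chain Myh6 had control values of 0.0115, 0.0120 and 0.00702 FPKM. It is listed at 0 in JunB dep replicate 0, and replicates 1 and 2 had 0.00670 and 0.0159 FPKM. It was below the filter in all 6 mice. Its transcript shares 22.8% of its 50-base windows with Myh7. Of the 8 cardiac markers 7 were tested and 0 called by limma, with 1 at an unadjusted p below 0.05. That gene was Actc1, the cardiac actin that skeletal muscle also expresses, with control values of 13.5, 3.74 and 13.4 FPKM and JunB dep values of 1.19, 0.725 and 2.35 FPKM (adjusted p = 0.204 from limma). Nppb, a natriuretic peptide, had at most 1.03 FPKM in the controls and JunB dep values of 119, 4.93 and 0.735 FPKM.

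The smooth muscle chain Myh11 (chromosome 16, 14194620 to 14291501, minus strand, mm9) split the JunB dep mice. Control values of 7.89, 9.67 and 8.12 FPKM stood beside JunB dep values of 1.49, 3.12 and 12.6 FPKM. Replicates 0 and 1 lay below the control range and replicate 2 above it. The log2 fold change was -0.99 (SE 0.67, adjusted p = 0.722 from limma), -0.39 without JunB dep replicate 0 and -1.75 without replicate 2 (adjusted p = 0.852 and 0.10 from limma). Of 9 smooth muscle markers 0 were called by limma, 3 were lower at an unadjusted p below 0.05 (Lmod1, Synpo2 and Des), and these 3 were also the ones without overlap. Among all 17021 tested genes 1044 were lower at an unadjusted p below 0.05, and 9.16% were lower without overlap. Des (desmin) belongs to skeletal muscle too. Acta2, the smooth muscle actin, had control values of 37.8, 81.6 and 59.3 FPKM and JunB dep values of 24.0, 50.2 and 85.5 FPKM. Cnn1 (calponin) had 2.53, 5.69 and 4.25 FPKM in the controls, and the JunB dep mice had 0.315, 3.54 and 10.2 FPKM. The order of Myh11 among the JunB dep mice, replicate 0 lowest and replicate 2 highest, was that of 6 of the 9 markers, the exceptions being Tagln and Smtn, highest in replicate 1, and Des, highest in replicate 0. The median log2 fold change of the list was -0.89, and -0.37 without JunB dep replicate 0. By mouse, the median against the control mean was -1.88, -0.57 and -0.15 in JunB dep replicates 0, 1 and 2. No marker was at 0 in any library. The summed level was 516 to 680 FPKM in the control mice, against 179 to 304 FPKM in JunB dep skin. Des was the largest part in controls, at 360 to 463 FPKM against 36.5 to 108 FPKM in JunB dep skin. Since Des belongs to skeletal muscle too, the sum cannot stand for smooth muscle alone. Of the other markers, Lmod1 and Synpo2 were lower without overlap, and the rest overlapped between the groups.

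**Figure D5:**
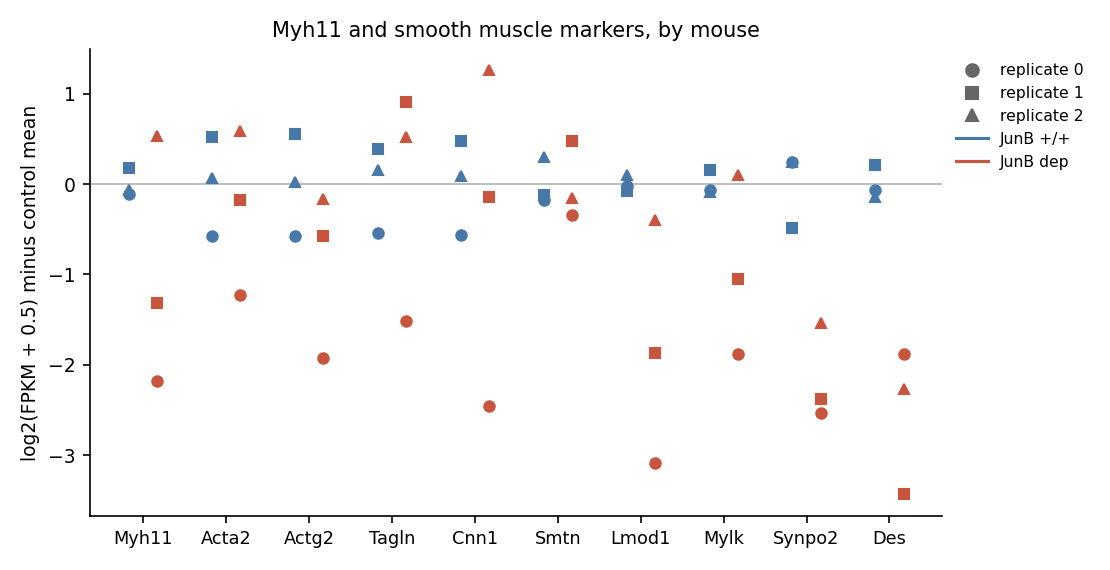
Log2(FPKM + 0.5) of Myh11 and 9 smooth muscle markers in each mouse, minus the mean of the 3 controls. JunB dep replicate 0 (red circles) is the lowest of the 6 mice for Myh11 and for every marker but Des, where replicate 1 is lowest, and JunB dep replicate 2 (red triangles) is the highest for Myh11, Acta2 and Cnn1.

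The non-muscle chains did not follow the fibre. Myh9 (chromosome 15, 77591017 to 77672605, minus strand, mm9) had control values of 45.5, 31.4 and 46.1 FPKM and JunB dep values of 70.4, 50.1 and 49.3 FPKM. All JunB dep mice were above all controls, by little in replicates 1 and 2. Among all tested genes 5.62% were higher without overlap. The log2 fold change was 0.46 (SE 0.23, 95% interval -0.10 to 1.03, adjusted p = 0.720 from limma). Leaving out JunB dep replicate 0 gave 0.30, and leaving out control replicate 1 gave 0.28. Myh10 (chromosome 11, 68505061 to 68630134, plus strand, mm9) had control values of 3.09, 2.56 and 3.78 FPKM and JunB dep values of 0.841, 3.82 and 2.73 FPKM. Only replicate 0 was below the controls, and the log2 fold change of -0.44 (SE 0.46, adjusted p = 0.754 from limma) was 0.0504 without it. Myh9 was 12.2 to 14.8 times Myh10 in controls, and 83.7, 13.1 and 18.03 times in JunB dep replicates 0, 1 and 2, so that replicates 0 and 2 lay above every control. The third non-muscle chain, Myh14, which is outside the 10, had control values of 25.6, 30.5 and 26.4 FPKM and JunB dep values of 12.2, 38.3 and 20.9 FPKM.

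Of the 8 partners of non-muscle myosin 0 were called by limma and 0 had an unadjusted p below 0.05, and their median log2 fold change was 0.16, or 0.0653 without JunB dep replicate 0. Myl6, the light chain shared by smooth and non-muscle myosin, ranged over 634 to 1037 FPKM in control mice and over 907 to 970 FPKM in JunB dep mice. Rock1 and Rock2, kinases that activate non-muscle myosin, had log2 fold changes of 0.21 and -0.03, and of 0.047 and 0.031 without that library. Myl9, a light chain that smooth muscle uses most, had control values of 51.3, 99.0 and 69.4 FPKM and JunB dep values of 13.4, 63.0 and 80.6 FPKM, lowest in replicate 0 like Myh11. The keratinocyte markers, which tell of the main cells of the epidermis, were called in 0 of 7 cases by limma, with 0 at an unadjusted p below 0.05 and a median of 0.06, which was -0.30 without JunB dep replicate 0.

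Genes with the pattern most like that of a chain were sought by Pearson correlation of log2(FPKM + 0.5) over the 6 mice, as a description. All points share the 6 libraries and their 2 groups. For Myh4 the nearest were Ppargc1a, Atp2a1, Myoz1, Pbxip1 and Synm, at r from 0.996 to 0.999. For Myh2 they were Mn1, Gmpr, Mapt, Eno3 and Pfkm, at r from 0.997 to 0.998. Myh2 and Myh4 correlated with each other at 0.971, Myh2 with Myh1 at 0.925 and Myh4 with Myh1 at 0.873. For Myh7 the nearest were Cuta, Ndufa11, A630020A06, Atp5e and Wdr96, at r from 0.987 to 0.993, and each was highest in control replicate 1. For Myh11 they were Tmed4, Spaca1, Sh3bgrl, Hnmt and Celf2, at r from 0.995 to 0.996, and each was lowest in JunB dep replicate 0.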

How the data were processed

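Whole skin of 3 JunB dep and 3 control mice was profiled with stranded poly(A) libraries. The authors aligned reads to mm9 with TopHat 2.0.10, Bowtie 1.0.0 and SAMtools 0.1.19 and deposited FPKM per gene and mouse. Cufflinks is among the tools in the submitters' processing notes. No source used here states a further scaling between libraries. The authors tested read counts, which were not used here, so no depth or counting interval is given. Here log2(FPKM + 0.5) of the 17021 genes whose mean reached 0.1 FPKM was fitted by limma (3.58.1, R 4.3.3) with its trend option and without a block. P-values were two-sided and adjusted by Benjamini-Hochberg over all 17021 genes. Shares and ratios were compared by exact permutation over mice in Python 3.11.15 with SciPy 1.17.1.

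The members and gene lists were chosen with earlier results of these data known. Named genes are the 10 members, the listed genes, Junb, and the 5 nearest by correlation to each of Myh2, Myh4, Myh7 and Myh11. Mymk was found under its synonym Tmem8c. Alternatives were pseudocounts, filters, scalings, limma settings, 2 blocks and each mouse left out.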

Additional observations from a re-analysis of the deposited data

How the results depend on the processing

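No result here has a detection limit, since the number of reads is unknown, and values below 0.1 FPKM order little. Over 17 alternatives the log2 fold change ran from -3.12 to -2.47 for Myh1, -4.15 to -3.42 for Myh2, -3.90 to -2.85 for Myh4 and 0.28 to 0.56 for Myh9, and over 16 from -1.43 to -0.43 for Myh8 and -2.30 to -0.37 for Myh7. Myh11 ran from -1.75 to -0.39 over 17. Myh1 and Myh2 were each called in 10 of the 17, Myh4 in 2 and Myh8 in 1. The direction of Myh10 alone of the 8 reversed: leaving out 1 mouse gave -0.793 to 0.0504, the latter without JunB dep replicate 0.

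With the replicate block, and with the title series as a block, there were 0 calls among all genes, among the members and on each muscle list. Deviations of same-numbered mice from their group means correlated at 0.12, -0.23 and -0.43, and those of other pairs at -0.37 to 0.46. Deviations from the mean of so small a group are tied to each other, so these values cannot decide whether the replicate numbers pair the mice. The labels used here do not say which mice shared a litter, and no litter term was fitted. Leaving out 1 mouse gave 0 to 251 genes lower and 0 to 11 higher (the 11 without JunB dep replicate 0), 0 to 2 members lower, 0 to 10 fast partners lower, 0 to 5 shared muscle genes lower, and 0 to 1 slow partners (Myoz2, without JunB dep replicate 0) and 0 to 1 smooth muscle markers lower. With no filter 1 fast partner and 3 shared muscle genes were called. Smooth muscle markers called lower numbered 2 with a filter at 1 FPKM, 1 after rescaling to a sum of 1000000 and 2 after quantile normalization. Against the partner lists as the reference, which are not of muscle alone, Myh1, Myh2 and Myh4 differed by -0.65, -1.58 and -1.12. Leaving out 1 mouse moved the difference in share between -2.93 and 17.6 percentage points for Myh1, -3.04 and -1.34 for Myh2 and -15.4 and 4.82 for Myh4. Of the other chains only Myh7 had its share recomputed, with the 4 adult chains as the denominator (means 0.0725% in controls and 0.00115% in JunB dep skin). The ratios between chains were not recomputed under alternatives.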
